A study of Homo sapiens with 9 samples.

Results

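A set of 10 protein-coding genes of the actin cytoskeleton, out of 19257 genes in the deposited tables, was followed through 9 RNA-seq libraries of A549 cells, which are an epithelial line from a lung adenocarcinoma. They were the calponin-family genes TAGLN, TAGLN2, CNN2 and CNN3, the myosin light chain gene MYL9, the tropomyosin genes TPM1, TPM2 and TPM4, and the alpha-actinin genes ACTN1 and ACTN4. The genes were chosen by name, with earlier results of these data known. TAGLN was singled out because its level was lower in both knockouts, so TAGLN against control is given as a description with no test. All 10 passed the filter on low counts, which kept 12574 genes.

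The groups held 3 libraries each. NC was A549 of genotype WT given the empty Lenti-CRISPR-V2 plasmid, OGT_KO was A549 given a plasmid of that type against OGT, and TR11B_KO was A549 given one against TR11B, taken here as TNFRSF11B, the gene of osteoprotegerin. All groups therefore shared the line and the plasmid backbone. The columns of each knockout carry 1 name, and guides and clones are not given in the sources used here, so a guide's or clone's own effects and the knockout's cannot be told apart. The titles speak of biological replicates, but nothing says that these were separate cultures, and p-values measure only the spread between these libraries, which may be technical.

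Library totals ran from 38327508 to 42245970 counts. TR11B_KO replicate 2 stood apart, with a scaling factor of 0.784 (TMM, edgeR's correction of library totals) against 0.951 to 1.159 elsewhere. OGT did not pass the test in OGT_KO (24.1 ± 3.73 against 27.1 ± 2.45 CPM in NC, SD, n = 3; edgeR adjusted p = 0.607) and was lower in TR11B_KO (13.6 ± 2.98 CPM, adjusted p = 0.00393). TNFRSF11B summed to 31, 1 and 4 counts in NC, OGT_KO and TR11B_KO. OGT_KO and TR11B_KO therefore stand for the libraries labelled so. The epithelial list (8 of 8 genes in the tables) also held CDH2 and VIM, which are mesenchymal markers. With them it summed to 20678 to 23119 CPM in NC, 12233 to 15280 in OGT_KO and 17202 to 26305 in TR11B_KO. KRT8 had means of 11460, 5777 and 9922 CPM in NC, OGT_KO and TR11B_KO, KRT18 had 6161, 3240 and 6755, and KRT7 had 3299.6, 4359 and 3309.5. CDH2 had 6.75, 22.5 and 6.44 CPM and VIM 641, 725 and 730. KRT19 had at most 17 counts in a library and EPCAM at most 2. CDH1 had no count in any library, which allows up to 0.0783 CPM at 3 counts on library totals without the TMM factor. The part of these marker differences in the results was not tested. The fibroblast list (5 of its 8 genes in the tables) summed to between 0.203 and 0.871 CPM. The smooth muscle list (6 of 9 genes in the tables) summed to 434 to 449 CPM in NC, 279.9 to 343 in OGT_KO and 301 to 542 in TR11B_KO, nearly all of it SMTN. Its defining genes MYH11, DES, CNN1 and ACTG2 had at most 4 counts in any library, and ACTA2 had group means of 0.886, 2.01 and 0.921 CPM in NC, OGT_KO and TR11B_KO.

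Actin filaments carry proteins that decide how stable, how bundled and how contractile they are. Tropomyosins lie along the filament and control access of myosin and of severing proteins, alpha-actinins cross-link neighbouring filaments and anchor them at adhesions, calponins and transgelins bind and stabilise filaments, and myosin II pulls on them when its regulatory light chain is phosphorylated. In epithelial and carcinoma cells these proteins build stress fibres, the cell cortex and adhesions, and many of their genes are known targets of serum response factor (SRF), which binds the CArG box.

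Per gene length, the members spanned a wide range in NC. TAGLN2 led with 1355 ± 46.2 FPKM (reads per gene scaled to gene length and library total, the authors' values; SD, n = 3). CNN2 followed with 671 ± 26.6 FPKM and TPM2 with 561 ± 16.7. MYL9 had 251 ± 2.08 FPKM, ACTN1 185 ± 34.6 and ACTN4 61.8 ± 12.01. TPM1 at 41.8 ± 2.97 FPKM and TPM4 at 37.96 ± 3.27 were neighbours whose ranges overlapped. TAGLN at 14.6 ± 0.838 FPKM and CNN3 at 1.76 ± 0.536 were the lowest. Over all 9 libraries the order of the mean FPKM was TAGLN2, TPM2, CNN2, MYL9, ACTN1, ACTN4, TPM1, TPM4, TAGLN and CNN3, so TPM2 and CNN2 changed places against the order in NC. Summed over the 10 genes, the FPKM was 3181 ± 45.6 in NC, 3223 ± 107 in OGT_KO and 2316 ± 165 in TR11B_KO. The 3 TR11B_KO sums were the lowest of the 9 on this scale. FPKM carries no TMM factor, and these factors were 1.006 to 1.011 in NC, 1.055 to 1.159 in OGT_KO and 0.784 to 1.002 in TR11B_KO. The FPKM sums here and below are therefore not on the scale of the tests.

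Because SRF targets are prominent in this family, the RefSeq promoter windows of the members (build GRCh38.p14) were searched for the CArG box, which reads alike on both strands. Of the 10 genes, 8 had a window, 18 windows in all, and TAGLN and MYL9 had none in the table. Over the 250 bases before the start, 3 of the 18 windows held a box, in 3 genes, while 1.16% of 35116 windows of the same length and 1.44% of 27305 genes held one. ACTN1 had it in 1 of 4 windows, TPM4 in 1 of 3 and CNN2 in its only window. The box with 50 bases on either side is printed for these 3 genes, 5′ to 3′ on the gene's strand with the box in capitals, since they are the members whose searched sequence carries it. The stretches are chr14:68977678-68977787 (minus strand, box 171 to 162 bases before the start), chr19:1026469-1026578 (plus strand, box 89 to 80 bases before) and chr19:16067315-16067424 (plus strand, box 173 to 164 bases before). The ACTN1 stretch lies inside the span of the gene (68874128 to 68979302), so the start of that window is not the outermost of the gene. A match is only a description of these letters.
ACTN1: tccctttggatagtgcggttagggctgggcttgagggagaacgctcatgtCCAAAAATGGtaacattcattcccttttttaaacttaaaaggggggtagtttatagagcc
CNN2: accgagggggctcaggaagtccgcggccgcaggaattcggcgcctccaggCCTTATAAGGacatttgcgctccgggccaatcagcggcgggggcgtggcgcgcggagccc
TPM4: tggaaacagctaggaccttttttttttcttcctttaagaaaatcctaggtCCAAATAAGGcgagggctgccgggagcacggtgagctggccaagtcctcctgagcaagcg

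The calponin family held TAGLN, the member singled out beforehand for its lower level in both knockouts. TAGLN (chromosome 11, 117199294 to 117207465) encodes transgelin, an actin-stabilising protein best known from smooth muscle. Its TMM-normalized CPM (counts scaled by the TMM-adjusted library total) was 57.5, 64.8 and 62.1 in NC replicates 1, 2 and 3. It was 15.1, 11.5 and 13.4 CPM in OGT_KO, and 18.3, 15.3 and 15.9 CPM in TR11B_KO. The highest of the 6 knockout libraries was thus far below the lowest NC library. Group means were 61.5 ± 3.68, 13.3 ± 1.82 and 16.5 ± 1.61 CPM (SD, n = 3), 4.61-fold lower in OGT_KO and 3.72-fold lower in TR11B_KO than in NC, and the fitted log2 differences were −2.20 and −1.89. The span between the highest and lowest of the 9 libraries was 5.63-fold, from NC replicate 2 to OGT_KO replicate 2. It restates the fall for which TAGLN was singled out. Among the other members the widest span was the 4.13-fold of ACTN1. In bulk RNA, fewer cells that express a gene and less RNA per cell cannot be told apart.

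The knockouts themselves, a contrast that did not serve to choose TAGLN, differed by a log2 value of −0.31 ± 0.18 (SE, OGT_KO against TR11B_KO; edgeR adjusted p = 0.199), which did not pass the test. TAGLN overlaps PCSK7, a gene on the opposite strand (117204337 to 117232073), and the sources used here do not say whether counting used strand. PCSK7 was at 79.0 ± 4.93, 50.8 ± 2.24 and 59.3 ± 5.97 CPM in NC, OGT_KO and TR11B_KO. It fell by 0.64 ± 0.16 in OGT_KO (adjusted p = 0.0137) and had a log2 fold change of −0.41 ± 0.16 in TR11B_KO (adjusted p = 0.0656). The PCSK7 call was lost without NC replicate 1 or 2 or OGT_KO replicate 1, 2 or 3 (adjusted p up to 0.0719). Its part in the TAGLN values was not tested.

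TAGLN2 (chromosome 1, 159918111 to 159925507), the transgelin of non-muscle cells, supplied nearly all transgelin mRNA. It had 2385, 2309 and 2460 CPM in NC, 1848, 1590 and 1851 in OGT_KO. TR11B_KO had 1475, 1857 and 1486. All 6 knockout libraries lay below all 3 NC libraries. It fell in TR11B_KO by 0.57 ± 0.16 (SE) on the log2 scale (edgeR adjusted p = 0.0174). In OGT_KO the log2 fold change was −0.44 ± 0.16 (adjusted p = 0.0721), which did not pass. The call in TR11B_KO was lost without NC replicate 1, 2 or 3 or without TR11B_KO replicate 3, with log2 fold changes from −0.60 to −0.52 and adjusted p from 0.0553 to 0.0676. It was also lost with DESeq2's size factors (RLE; −0.50, adjusted p = 0.0522) and with only the 2 groups compared in the fit (adjusted p = 0.0552). TAGLN made up 1.06 ± 0.0825% of the summed FPKM of TAGLN and TAGLN2 in NC, 0.314 ± 0.0232% in OGT_KO and 0.435 ± 0.0872% in TR11B_KO.

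CNN2 (chromosome 19, 1026608 to 1039065), was the non-muscle calponin with the higher level here. It had 1468, 1533 and 1409 CPM in NC, 1273, 1183 and 1165 in OGT_KO. TR11B_KO had 970.2, 1221 and 964. Each knockout library was below each NC library. CNN2 fell in TR11B_KO by 0.48 ± 0.16 (edgeR adjusted p = 0.0353), and the log2 fold change in OGT_KO was −0.28 ± 0.16 (adjusted p = 0.224). The TR11B_KO call was narrow, lost in 13 of 20 alternatives, including those without NC replicate 1, 2 or 3, OGT_KO replicate 1 or 3, or TR11B_KO replicate 1 or 3 (adjusted p up to 0.128).

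CNN3 (chromosome 1, 94896957 to 94927110), the acidic calponin, was scarce, with 6.81, 6.97 and 11.3 CPM in NC. OGT_KO had 12.1, 13.9 and 12.2 CPM and TR11B_KO 8.52, 7.48 and 7.81. The OGT_KO libraries were the 3 highest, and TR11B_KO lay within the NC range. CNN3 was higher in OGT_KO than in TR11B_KO by 0.68 ± 0.23 (edgeR adjusted p = 0.0358), a call that ended without OGT_KO replicate 1, 2 or 3 or TR11B_KO replicate 3 (highest adjusted p 0.124) and also ended with the correction for gene length described below (0.49, adjusted p = 0.121), with RLE factors (0.61, adjusted p = 0.0507) and with only the 2 groups compared (adjusted p = 0.0627). Against NC it had log2 fold changes of 0.61 ± 0.23 in OGT_KO (adjusted p = 0.0816) and −0.07 ± 0.23 in TR11B_KO (adjusted p = 0.846). CNN3 made up 0.264 ± 0.0903% of the summed FPKM of CNN2 and CNN3 in NC, 0.486 ± 0.0520% in OGT_KO (exact permutation p = 0.1, n = 3) and 0.353 ± 0.0633% in TR11B_KO (exact permutation p = 0.2, n = 3). The TR11B_KO difference was 0.0892 points, and 0.141 without NC replicate 3.

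**Figure D1:**
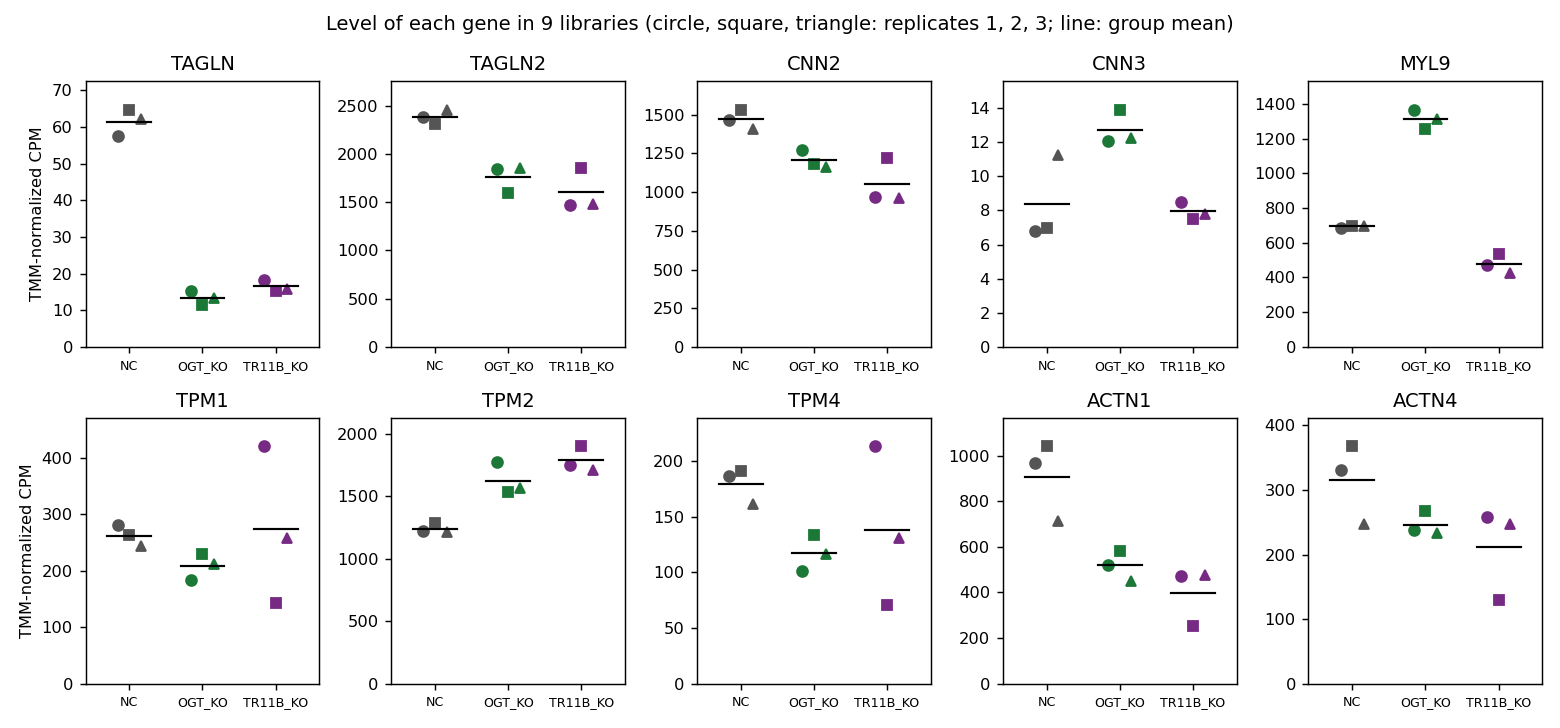
TMM-normalized CPM of the 10 genes (vertical axis, linear from 0) in the NC, OGT_KO and TR11B_KO libraries; circles, squares and triangles are replicates 1, 2 and 3 and lines are group means. TAGLN lies at 57.5 to 64.8 CPM in NC and at 11.5 to 18.3 in the knockouts, MYL9 is highest in OGT_KO and lowest in TR11B_KO, and the square of TR11B_KO is the lowest point for TPM1, TPM4, ACTN1 and ACTN4.

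MYL9 (chromosome 20, 36541519 to 36551447), a regulatory light chain of myosin II whose phosphorylation switches on contraction, had the largest difference between the knockouts among the 10 members. It had 686, 699 and 697 CPM in NC, a coefficient of variation of 0.972%. OGT_KO had 1367, 1255 and 1312 CPM and TR11B_KO 471, 533 and 423. No library of any group overlapped with another group, with OGT_KO above NC and TR11B_KO below it. MYL9 rose in OGT_KO by 0.92 ± 0.15 on the log2 scale (edgeR adjusted p = 0.00131), or 1.89-fold. It fell in TR11B_KO by 0.54 ± 0.15 (adjusted p = 0.0182). Between the knockouts the difference was 1.46 ± 0.16 (adjusted p = 1.91e-05), 2.76-fold higher in OGT_KO.

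The rise of MYL9 in OGT_KO passed the test in 20 of 20 alternatives, from 0.89 to 1.03, with adjusted p up to 0.0137. The difference between the knockouts did so too, from 1.39 to 1.73, with adjusted p up to 0.000437. The fall in TR11B_KO was lost without NC replicate 1, 2 or 3 or TR11B_KO replicate 3 (log2 fold changes from −0.56 to −0.47, adjusted p from 0.0504 to 0.0777), with RLE factors (−0.48, adjusted p = 0.0517) and with only the 2 groups compared (adjusted p = 0.0625). MYL9 has close copies in MYL12A and MYL12B, and the sources used here do not say how reads matching more than 1 gene were counted. This caution also holds for the tropomyosins, the actinins and the actins. MYL12A had log2 fold changes of 0.09 ± 0.26 in OGT_KO (adjusted p = 0.844) and 0.30 ± 0.26 in TR11B_KO (adjusted p = 0.421). MYL12B had 0.23 ± 0.22 in OGT_KO (adjusted p = 0.505) and rose in TR11B_KO by 0.68 ± 0.22 (adjusted p = 0.0358), the direction opposite to that of MYL9. That MYL12B call was lost in 15 of 20 alternatives, including the length correction and those without any 1 library other than TR11B_KO replicate 2 (adjusted p up to 0.375).

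Among the tropomyosins, TPM2 was the abundant one and the only one of the 3 members with higher values in both knockouts. TPM2 (chromosome 9, 35681993 to 35690056), which encodes beta-tropomyosin, had 1223, 1288 and 1213 CPM in NC. It had 1775, 1536 and 1568 CPM in OGT_KO and 1752, 1903 and 1714 in TR11B_KO. The knockout libraries all lay above the NC libraries. TPM2 rose in TR11B_KO by 0.53 ± 0.15 (edgeR adjusted p = 0.0188). In OGT_KO its log2 fold change was 0.39 ± 0.15 (adjusted p = 0.0857). The TR11B_KO call was lost without NC replicate 1, 2 or 3 (0.51 to 0.55, adjusted p from 0.0653 to 0.0867), with the length correction (0.43, adjusted p = 0.0732) and with only the 2 groups compared (adjusted p = 0.0556).

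TPM1 (chromosome 15, 63042747 to 63071915), the alpha-tropomyosin gene, varied more within TR11B_KO than between groups. NC had 281, 263 and 243 CPM, OGT_KO 184, 229.6 and 213, and TR11B_KO 421, 143 and 257. The highest and the lowest of the 9 libraries were thus TR11B_KO replicates 1 and 2, with a coefficient of variation of 51.0% in that group. TPM1 had log2 fold changes of −0.33 ± 0.28 in OGT_KO (edgeR adjusted p = 0.445) and 0.06 ± 0.28 in TR11B_KO (adjusted p = 0.891). The TR11B_KO value turned to −0.33 without replicate 1 of that group and reached 0.40 without replicate 2 (adjusted p = 0.0454).

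TPM4 (chromosome 19, 16067538 to 16103002), a tropomyosin of stress fibres and podosomes, followed the same order of libraries within TR11B_KO. It had 187, 191 and 162 CPM in NC, 101, 134 and 117 in OGT_KO. TR11B_KO had 214, 70.3 and 131. The OGT_KO libraries lay below NC without overlap, and TR11B_KO spanned the whole range of the 9 libraries, from lowest to highest. The log2 fold changes were −0.62 ± 0.29 in OGT_KO (edgeR adjusted p = 0.152) and −0.38 ± 0.29 in TR11B_KO (adjusted p = 0.354). Without TR11B_KO replicate 2 the OGT_KO difference passed (−0.61, adjusted p = 0.0011), and without TR11B_KO replicate 1 that of TR11B_KO did (−0.78, adjusted p = 0.0146).

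The makeup of the tropomyosin mRNA was read from FPKM, as the share of each gene in the sum of TPM1 to TPM4. TPM2 held 82.7, 83.4 and 84.9% of it in NC, 91.7, 88.4 and 89.9% in OGT_KO. TR11B_KO had 84.2, 94.9 and 89.3%. OGT_KO lay above NC in every library, and TR11B_KO replicate 1 lay inside the NC range. The TPM2 share was 6.32 percentage points higher in OGT_KO (exact two-sided permutation test over libraries, p = 0.1) and 5.74 points higher in TR11B_KO (exact permutation p = 0.2). With 3 against 3 libraries, 0.1 is the smallest p this test can give, so no such comparison can pass at 0.05. Without TR11B_KO replicate 2 the difference in TR11B_KO was 3.02 points. TPM2 has 2232 bases, against 6330 for TPM1, 4782 for TPM4 and 11203 for TPM3. The shares were not corrected for the length trend of the TR11B_KO libraries described below.

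The mean shares of the other tropomyosins were lower in both knockouts. TPM4 had 5.65 ± 0.319% in NC, 3.05 ± 0.582% in OGT_KO and 3.204 ± 1.58% in TR11B_KO (exact permutation p = 0.1 in each, n = 3). TPM1 had 6.23 ± 0.393, 4.11 ± 0.675 and 4.79 ± 2.31% (exact permutation p = 0.1 in OGT_KO and 0.4 in TR11B_KO, n = 3). TPM3, no member, had 4.43 ± 0.571, 2.84 ± 0.447 and 2.57 ± 1.49%. In TR11B_KO the TPM1 difference of −1.44 points became −0.305 without replicate 2 of that group and −2.61 without its replicate 1. The TPM3 difference of −1.85 points became −1.05 without replicate 2. The summed FPKM of the 4 genes was 671 ± 24.4 in NC, 883 ± 52.0 in OGT_KO and 819 ± 115 in TR11B_KO. On CPM, which is not scaled to length, the TPM2 share differed from NC by 11.9 points in each knockout. In TR11B_KO that value, too, leaned on replicate 2. There TPM1, TPM3 and TPM4 had their lowest CPM of the group (143, 98.1 and 70.3) and TPM2 its highest (1903).

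**Figure D2:**
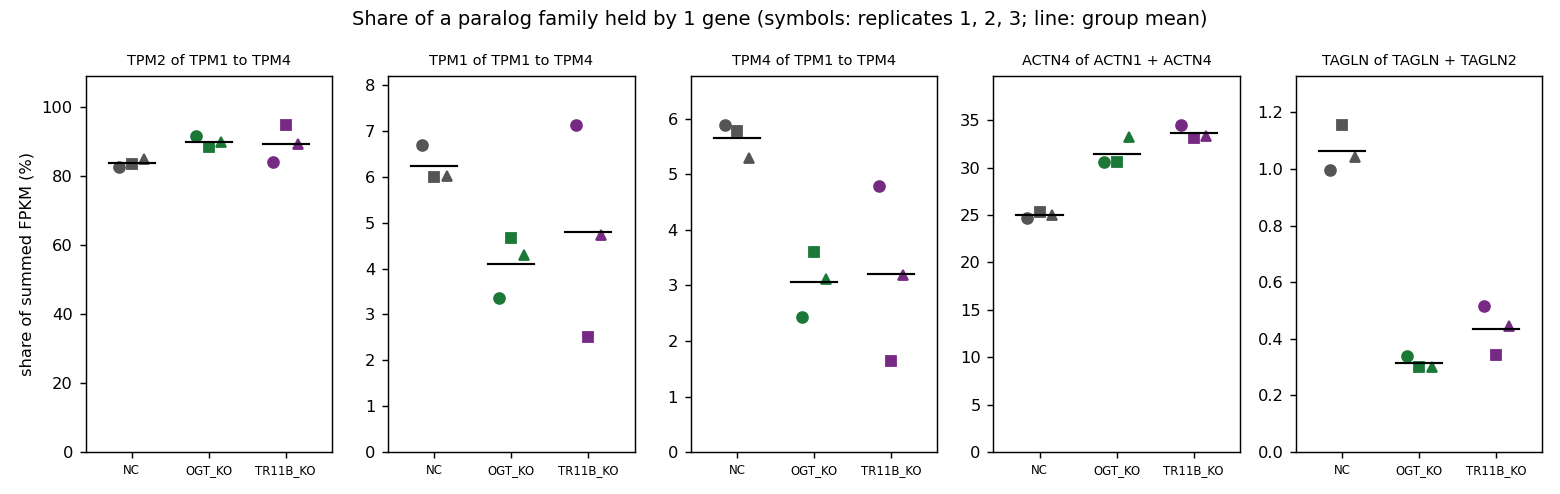
Share of a gene in the summed FPKM of its paralog family (vertical axis, percent from 0) per library; circles, squares and triangles are replicates 1, 2 and 3 and lines are group means. TPM2 goes from 83.7% in NC to 90.0% in OGT_KO and 89.4% in TR11B_KO, and ACTN4 from 25.0% to 31.5% and 33.6%.

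The alpha-actinins held the member with the largest tested fall. ACTN1 (chromosome 14, 68874128 to 68979302), a cross-linker of stress fibres and focal adhesions, had 968, 1041 and 714 CPM in NC. It had 520.3, 584 and 452 CPM in OGT_KO and 471, 252 and 476 in TR11B_KO. All knockout libraries lay below NC, whose lowest library was replicate 3. ACTN1 fell in TR11B_KO by 1.18 ± 0.24 on the log2 scale (edgeR adjusted p = 0.00291), 2.27-fold, and the fall passed in 20 of 20 alternatives, from −1.38 to −0.91 with adjusted p up to 0.0285. It fell in OGT_KO by 0.81 ± 0.24 (adjusted p = 0.0296), 1.75-fold. That call was lost in 10 of 20 alternatives, where the adjusted p reached 0.239. Those without NC replicate 1 or 2 or without OGT_KO replicate 1, 2 or 3 were among these (−0.90 to −0.70). Between the knockouts the difference was 0.38 ± 0.23 (adjusted p = 0.234).

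ACTN4 (chromosome 19, 38647649 to 38731589), the other non-muscle actinin, had 330.5, 368 and 247 CPM in NC, 238, 267 and 233 in OGT_KO. TR11B_KO had 258, 129.6 and 247. The groups overlapped. Its log2 fold changes were −0.36 ± 0.24 in OGT_KO (edgeR adjusted p = 0.318) and −0.57 ± 0.24 in TR11B_KO (adjusted p = 0.0862). ACTN4 held 25.0 ± 0.317% of the summed FPKM of the pair in NC, 31.5 ± 1.498% in OGT_KO and 33.6 ± 0.756% in TR11B_KO. The shares of NC did not overlap with those of either knockout (exact permutation p = 0.1 in each, n = 3), although the lowest ACTN1 and ACTN4 values of TR11B_KO came from 1 library. The summed FPKM of the pair was 247 ± 46.6 in NC, 167 ± 27.0 in OGT_KO and 114 ± 47.3 in TR11B_KO.

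Counted together, 2 of the 9 members other than TAGLN passed in OGT_KO against NC (22.2%, MYL9 higher and ACTN1 lower), where 18.3% of all tested genes passed, 8.26% higher and 10.1% lower. The share of members was thus near that of all genes. The 3 OGT_KO libraries did not overlap with NC for 8 of these 9 members, 3 higher and 5 lower, against 49.8% of all genes. In TR11B_KO against NC, 5 of 9 passed (55.6%, TPM2 higher and TAGLN2, MYL9, CNN2 and ACTN1 lower), where 27.6% of all genes passed, 13.2% higher and 14.3% lower. The libraries did not overlap for the same number of members, 5 of 9, against 40.9% of all genes. Median log2 fold changes of the 9 were −0.33 in OGT_KO (all genes 0.03) and −0.48 in TR11B_KO (all genes −0.01). Both comparisons share the NC libraries. The members were chosen with earlier results of these data known, so their shares beside those of all genes are descriptions only. Between the knockouts, 2 of 10 members passed (20.0%, MYL9 and CNN3, both higher in OGT_KO), where 33.2% of all genes did, 16.7% higher and 16.5% lower. Groups did not overlap for 3 of 10, against 44.9% of all genes.

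These counts moved with the libraries fitted. Without TR11B_KO replicate 2, 7 of 9 members passed in OGT_KO (35.4% of all genes), 6 of 9 in TR11B_KO (34.2%) and 4 of 10 between the knockouts (41.4%). The 4 then were MYL9 and CNN3, higher in OGT_KO, and TPM1 and TPM4, higher in TR11B_KO. With only the 2 groups compared in the fit, 9 of 9 passed in OGT_KO (41.8% of all genes) and only ACTN1 in TR11B_KO (18.7%). Without NC replicate 1, 2 or 3, again only ACTN1 passed in TR11B_KO. Of all genes, 1866 of 12857, 1813 of 12853 and 2715 of 12870 passed in these fits. In the fit of all 9 libraries 3469 of 12574 did.

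**Figure D3:**
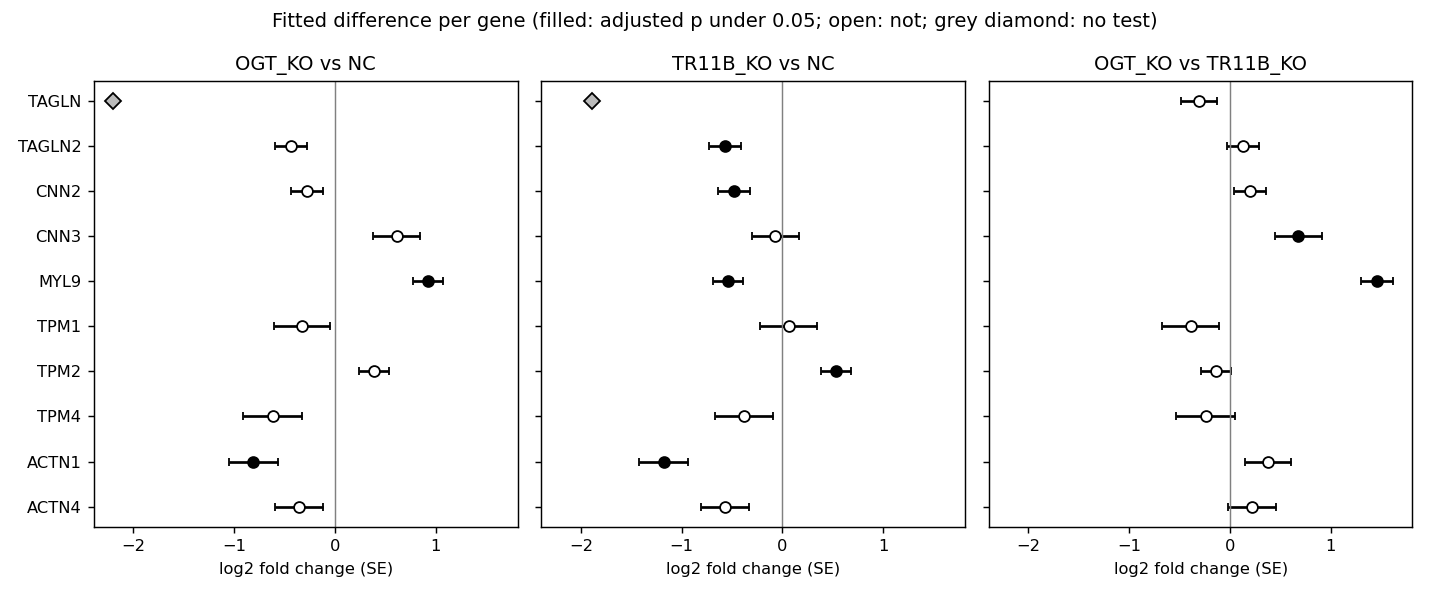
Fitted log2 fold changes of the 10 genes (horizontal axis, bars are SE) in OGT_KO against NC, TR11B_KO against NC and OGT_KO against TR11B_KO; filled circles have an adjusted p under 0.05, open circles do not, and grey diamonds have no test. MYL9 lies at 0.92, −0.54 and 1.46 in the 3 comparisons, and ACTN1 at −0.81, −1.18 and 0.38.

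Gene length moved with the TR11B_KO libraries. Tested genes were divided by length into 5 classes of like size. Those in the shortest class (111 to 2047 bases) had a median log2 fold change of 0.42 in TR11B_KO against NC, and those in the longest class (7154 to 47609 bases) −0.31. The corresponding medians in OGT_KO were 0.08 and 0.21. TAGLN2, at 1776 bases, lay in the shortest class, whose median was higher, yet it fell. TPM2, MYL9 and CNN2 were in the second (median 0.11), TAGLN in the third (−0.08), and TPM1, TPM4, CNN3, ACTN1 and ACTN4 in the fourth (−0.22). With a smooth correction for length per library, TAGLN2 had −0.77 (edgeR adjusted p = 0.00681), MYL9 −0.55, CNN2 −0.59 and ACTN1 −0.97 in TR11B_KO, all still called, and the TPM2 call was lost. CNN3 turned from −0.07 to 0.13. TPM2 then had 0.43, TPM1 0.31 and TPM4 −0.19 in TR11B_KO. FPKM uses 1 length per gene for all libraries and so keeps this trend. Its part in the paralog shares was not tested.

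**Figure D4:**
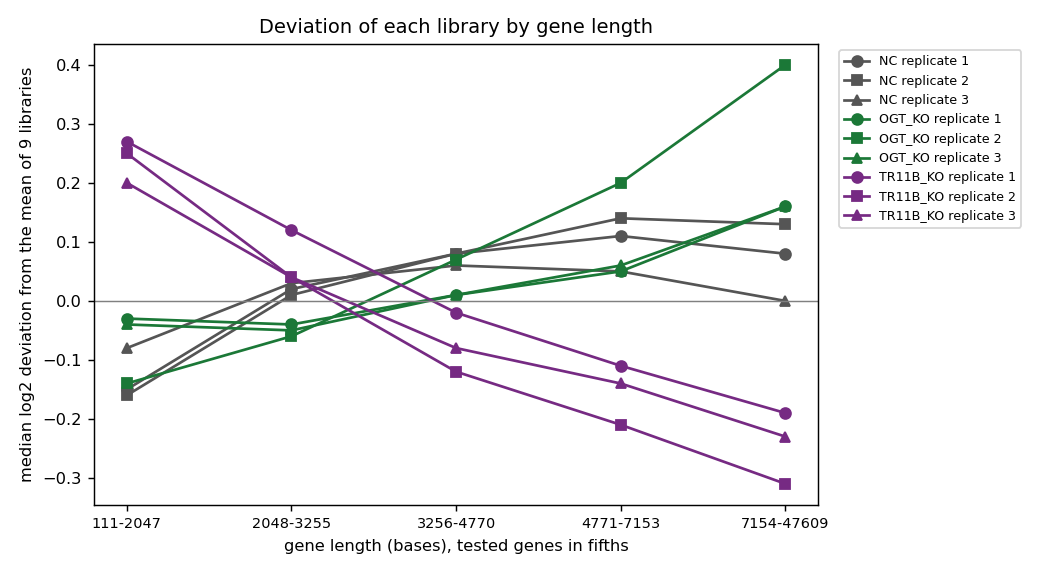
Median log2 deviation of each library from the mean of the 9 libraries (vertical axis) for tested genes in 5 classes of gene length (horizontal axis, bases); lines are libraries, colours are groups. The 3 TR11B_KO libraries go from 0.20 to 0.27 in the shortest class to between −0.31 and −0.19 in the longest.

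Genes whose libraries follow TAGLN most closely were sought among the 4436 tested genes whose average log2 CPM reached 4. Over the 9 libraries high Pearson correlations with TAGLN were those of PPM1G (0.992), NRBP1 (0.985), TMEM40 (0.984) and MAT2A (0.983). These are descriptions of 9 points in 3 separate groups that share their libraries. PPM1G, a nuclear protein phosphatase, was at 328 ± 9.87, 179.9 ± 13.4 and 199 ± 6.61 CPM in NC, OGT_KO and TR11B_KO. TMEM40, a membrane protein gene, was at 48.7 ± 2.33, 17.1 ± 3.64 and 22.3 ± 2.09 CPM. No other member was among the 5 highest.

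The rest of the actin cytoskeleton was followed through 10 lists of 121 further genes, 117 of them in the tables and 104 tested. These lists, too, were chosen with earlier results of these data known. In OGT_KO against NC, 11 rose and 15 fell (25.0%, where 18.3% of all tested genes passed), with a median log2 fold change of 0.03, equal to that of all tested genes. In TR11B_KO, 7 rose and 25 fell (30.8%, near the 27.6% of all genes), with a median of −0.33 where all genes had −0.01. With the length correction 3 rose and 20 fell in TR11B_KO (22.2% of all genes passed), with a median of −0.22 against 0.05, and 10 rose and 18 fell in OGT_KO (18.2% of all genes). Between the knockouts, 31 of the 104 were higher in OGT_KO and 12 lower (41.3%, against 33.2% of all genes), and 26 and 8 with the length correction (28.0% of all genes). Scaling by library totals alone, which moved the median of all genes to 0.15, −0.15 and 0.31 in the 3 comparisons, gave 17 higher and 9 lower, 5 and 32, and 45 and 7 (18.0, 25.5 and 34.6% of all genes passed). Without TR11B_KO replicate 2 27 rose and 32 fell in OGT_KO and 13 rose and 32 fell in TR11B_KO of 105 tested, where 35.4 and 34.2% of all genes passed. The counts of single lists that follow are read against the shares of all genes, 18.3% in OGT_KO and 27.6% in TR11B_KO. The calls in OGT_KO also moved with other single libraries. Without any 1 of NC replicates 1 to 3 or OGT_KO replicates 1 to 3 there were 9 to 13. Calls over all genes fell too, from 2303 of 12574 to between 1072 of 12857 and 1447 of 12870. In TR11B_KO there were 16, 17 and 21 without NC replicate 1, NC replicate 2 and TR11B_KO replicate 3. Those fits called 1866, 1813 and 2723 of all genes, against 3469 in the main fit.

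Among the actins, 0 of 3 tested genes passed in OGT_KO and 1 fell in TR11B_KO. ACTB, the beta-actin gene, had 5953 ± 550.3 CPM in NC, 6814 ± 453 in OGT_KO and 3843 ± 650.4 in TR11B_KO. It fell in TR11B_KO by 0.63 ± 0.17 (edgeR adjusted p = 0.014), a call lost without NC replicate 1 or 2 (adjusted p up to 0.0747), and had a log2 fold change of 0.19 ± 0.17 in OGT_KO (adjusted p = 0.451). ACTG1, the gamma-actin gene, had 14295 ± 386, 11194 ± 423 and 13342 ± 462 CPM and passed in neither (adjusted p = 0.0967 and 0.632). The skeletal, cardiac and enteric actin genes were not among the tested genes.

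Tropomyosin and calponin relatives had 2 of 5 tested genes higher in OGT_KO (40.0%), and none passed in TR11B_KO, where the 5 log2 fold changes ran from −0.44 to 0.63. CALD1, caldesmon, which blocks myosin on actin filaments, had 2.41, 2.68 and 2.94 CPM in NC, then 10.7, 12.4 and 9.33 in OGT_KO, whereas TR11B_KO had 2.02, 2.32 and 1.69. CALD1 rose in OGT_KO by 2.01 ± 0.23 (edgeR adjusted p = 7.74e-05), 4.03-fold, and passed in 20 of 20 alternatives. In TR11B_KO its log2 fold change was −0.42 ± 0.23 (adjusted p = 0.204). The difference between the knockouts was 2.43 ± 0.24 (adjusted p = 7.82e-06). Like MYL9, CALD1 was thus highest in OGT_KO in all 3 libraries.

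The myosin II chains had 2 of 6 tested genes higher in each knockout (33.3%) and 0 lower. They were MYL6B in both, MYH10, a heavy chain, in OGT_KO and MYL12B in TR11B_KO. MYL6B, an essential light chain, had 81.1 ± 4.10 CPM in NC, 140.3 ± 10.6 in OGT_KO and 159 ± 20.2 in TR11B_KO. It rose by 0.79 ± 0.16 (edgeR adjusted p = 0.00439) and by 0.97 ± 0.16 (adjusted p = 0.000999), and the TR11B_KO call was lost with the length correction (0.45, adjusted p = 0.0748). That correction also ended the MYL12B call (0.31, adjusted p = 0.332). MYH10 rose in OGT_KO by 0.72 ± 0.23 (adjusted p = 0.0447), a call lost in 12 of 20 alternatives, including those without any 1 of the NC and OGT_KO libraries or without TR11B_KO replicate 3 (adjusted p up to 0.191). MYL6, the abundant essential light chain at 3373 ± 490.3 CPM in NC, passed in neither (adjusted p = 0.775 and 0.451).

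Of the genes that control contractility, 2 rose and 2 fell of 16 in OGT_KO, and 1 rose and 5 fell in TR11B_KO. The 2 that rose were ROCK1 and ARHGEF12, with log2 fold changes of 1.015 and 1.097. In TR11B_KO, ROCK1 had −0.537 and did not pass, and ARHGEF12 had −0.887 and passed as lower. The alternatives for these 2 genes are not given here. RHOB, a small GTPase, had 144 ± 6.33, 88.3 ± 7.00 and 64.2 ± 16.5 CPM in NC, OGT_KO and TR11B_KO and fell in TR11B_KO by 1.17 ± 0.19 (edgeR adjusted p = 0.000954). It also fell in OGT_KO by 0.71 ± 0.19 (adjusted p = 0.0205), a call lost in 10 of 20 alternatives, including those without any 1 of the NC and OGT_KO libraries (adjusted p up to 0.173). ARHGEF2, an exchange factor for small GTPases, fell in TR11B_KO by 1.00 ± 0.18 (adjusted p = 0.0014) and in OGT_KO by 0.77 ± 0.18 (adjusted p = 0.00869), the latter call lost without OGT_KO replicate 3 (adjusted p = 0.0581). ARHGEF11, another, fell in TR11B_KO by 1.39 ± 0.26 (adjusted p = 0.00173) and had −0.45 ± 0.25 in OGT_KO (adjusted p = 0.231). PPP1R14B, an inhibitor of myosin phosphatase, rose in TR11B_KO by 0.80 ± 0.18 (adjusted p = 0.00514), from 968 ± 26.7 to 1681 ± 351 CPM, and this call was lost with the length correction (0.32, adjusted p = 0.234). MYLK, the myosin light chain kinase that phosphorylates MYL9, had 0 counts in all 9 libraries. This allows up to 0.0783 CPM at 3 counts on library totals without the TMM factor.

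Cross-linkers and bundlers other than the actinins had 1 of 12 tested genes higher in OGT_KO and 3 lower in TR11B_KO. The 3 were SPTBN1 and SPTAN1, the spectrin chains of the cell cortex, and ANLN, anillin of the contractile ring. SPTBN1 fell by 1.48 ± 0.23 (edgeR adjusted p = 0.000689), from 68.4 ± 15.8 to 24.5 ± 5.17 CPM. SPTAN1 fell by 1.18 ± 0.25 (adjusted p = 0.00364) and ANLN by 1.13 ± 0.23 (adjusted p = 0.00331). In OGT_KO their log2 fold changes were −0.22, 0.08 and −0.05, and each was higher in OGT_KO than in TR11B_KO (adjusted p of 0.00115, 0.00175 and 0.00307).

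Of the focal adhesion and stress fibre genes, 3 of 19 fell in OGT_KO (15.8%) and 6 of 19 in TR11B_KO (31.6%), with 0 higher, and these shares were near those of all genes (18.3 and 27.6%). TNS3, tensin 3, an adaptor between integrins and actin, had 48.7 ± 11.8 CPM in NC, 16.4 ± 2.07 in OGT_KO and 12.3 ± 5.78 in TR11B_KO. It fell by 1.57 ± 0.30 (edgeR adjusted p = 0.00276) and 1.98 ± 0.30 (adjusted p = 0.000574). PARVA, alpha-parvin of the integrin-linked kinase complex, had 25.1 ± 3.36, 11.1 ± 1.21 and 11.4 ± 3.10 CPM and fell by 1.18 ± 0.23 (adjusted p = 0.00348) and 1.13 ± 0.23 (adjusted p = 0.0033). Both genes passed in 20 of 20 alternatives in each knockout.

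Filament turnover genes went both ways, with 2 of 16 higher and 4 lower in OGT_KO and 3 higher and 2 lower in TR11B_KO. CAPG, a filament-capping protein, had 123 ± 13.4 CPM in NC, 83.9 ± 12.3 in OGT_KO and 262 ± 34.2 in TR11B_KO. It rose in TR11B_KO by 1.09 ± 0.18 (edgeR adjusted p = 0.000871). It fell in OGT_KO by 0.55 ± 0.18 (adjusted p = 0.0428), a call lost in 10 of 20 alternatives, including those without any 1 of the NC and OGT_KO libraries or without TR11B_KO replicate 3 (adjusted p up to 0.178). OGT_KO was lower than TR11B_KO by 1.64 on the log2 scale (log2 fold change −1.64 ± 0.18, adjusted p = 2.28e-05). WDR1, a cofactor of cofilin in filament disassembly, fell in TR11B_KO by 0.81 ± 0.15 (adjusted p = 0.00207) and in OGT_KO by 0.63 ± 0.15 (adjusted p = 0.0121). The OGT_KO call was lost without NC replicate 1 or 2 or OGT_KO replicate 1, 2 or 3 (adjusted p up to 0.0659). Of the nucleators and branching factors, 1 of 17 was higher and 2 lower in OGT_KO, and 5 were lower in TR11B_KO with 0 higher. DIAPH1, a formin that elongates actin filaments, fell in TR11B_KO by 1.21 ± 0.26 (adjusted p = 0.00465), and WASF2, of the WAVE complex, by 1.16 ± 0.24 (adjusted p = 0.00338).

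The membrane linkers had 1 of 3 genes lower in each knockout, EZR in OGT_KO and MSN in TR11B_KO. EZR, ezrin, fell in OGT_KO by 0.87 ± 0.19 (edgeR adjusted p = 0.00612), from 452 ± 45.9 to 247 ± 11.9 CPM, and the call was lost with limma on FPKM without a filter (adjusted p = 0.0822). MSN, moesin, fell in TR11B_KO by 1.01 ± 0.28 (adjusted p = 0.0164), a call lost in that setting too and without NC replicate 1 or 2 (adjusted p up to 0.0794).

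Of the SRF axis, 1 of 7 tested genes rose and 3 fell in OGT_KO, and 1 rose and 2 fell in TR11B_KO. SRF itself had 192 ± 10.7 CPM in NC, 119 ± 3.00 in OGT_KO and 139 ± 12.6 in TR11B_KO. Its level fell in OGT_KO by 0.69 ± 0.15 (edgeR adjusted p = 0.00715), a call that held in 20 of 20 alternatives. Its fall in TR11B_KO, 0.47 ± 0.15 (adjusted p = 0.0344), was lost in 14 of 20 alternatives, where the adjusted p reached 0.231. These included the fits without NC replicate 1, 2 or 3, OGT_KO replicate 1 or 3 or TR11B_KO replicate 1 or 3. CCN1 passed as lower in OGT_KO (−0.65 ± 0.16, adjusted p = 0.0119) and in TR11B_KO (−0.55 ± 0.16, adjusted p = 0.0193). Each CCN1 call was lost in 5 of 20 alternatives. CCN2 passed as lower in OGT_KO (−0.88 ± 0.27, adjusted p = 0.0353), a call lost in 11 of 20. Its log2 fold change in TR11B_KO was 0.61 ± 0.27 (adjusted p = 0.101). TGFB1I1, a focal adhesion coactivator also known as Hic-5, rose in TR11B_KO by 0.88 ± 0.23 (adjusted p = 0.0127), a call lost without NC replicate 1 (adjusted p = 0.0567). TGFB1I1 also rose in OGT_KO, by 0.75 ± 0.23 (adjusted p = 0.0366), which was lost without any 1 of the NC and OGT_KO libraries (adjusted p up to 0.127). Of the 3 members with a CArG box in a searched window, ACTN1 passed as lower in both knockouts, CNN2 in TR11B_KO and TPM4 in neither. The ACTN1 call in OGT_KO was lost in 10 of 20 alternatives and the CNN2 call in 13 of 20. Of the searched members with no box, TAGLN2 passed as lower and TPM2 as higher in TR11B_KO, and TPM1, CNN3 and ACTN4 passed in neither. MYL9, with no window, passed as higher in OGT_KO and as lower in TR11B_KO. The TR11B_KO calls of TAGLN2 and MYL9 were each lost in 7 of 20 alternatives and that of TPM2 in 6 of 20. A link between the box and these levels was not tested.

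**Figure D5:**
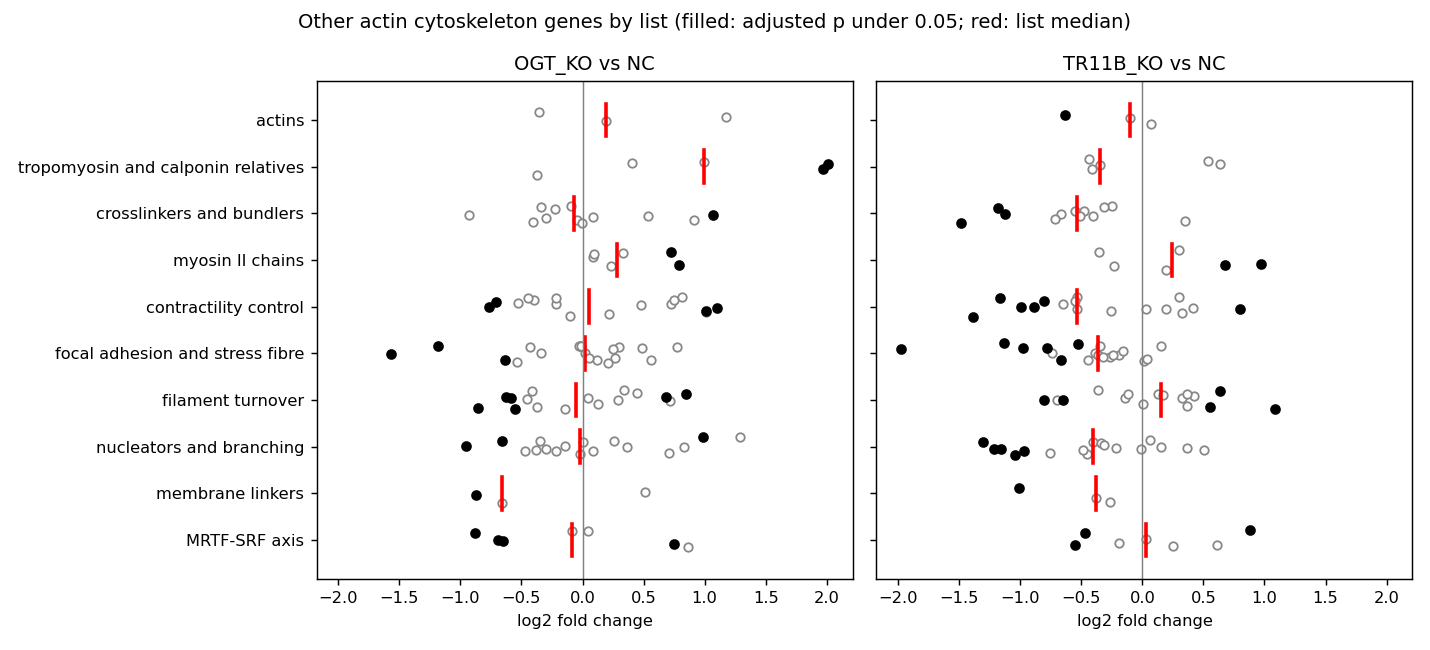
Log2 fold changes of the 104 other actin cytoskeleton genes (horizontal axis) by list, in OGT_KO against NC and TR11B_KO against NC; filled points have an adjusted p under 0.05 and red lines are list medians. The spectrin and anillin genes are the 3 filled points of the cross-linkers in TR11B_KO, at −1.48, −1.18 and −1.13, and CALD1 is the filled point of 2.01 in OGT_KO.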

How the data were processed

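RNA of 9 A549 libraries was extracted with TRIzol and prepared with the VAHTS Universal V6 kit, per the labels' protocols. The submitters' processing notes name fastp, HISAT, HTSeq, R 3.2.0, DESeq2 and GRCh38, with no role or setting. The first deposited table holds whole-number read counts per gene, not normalized by the authors. The second holds FPKM, scaled by the authors to gene length and library total. Gene lengths were taken from the ratio of the tables, and 17919 of 17923 came within 0.01 base of a whole number. Samples were grouped and numbered by their titles.

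Counts were fitted with edgeR 4.0.16 in R 4.3.3 (filterByExpr, TMM, robust quasi-likelihood F test, 1 mean per group over all 9 libraries, Benjamini-Hochberg adjustment over 12574 genes, called at an adjusted p under 0.05), after a test on simulated data. SE is the absolute log2 fold change over the square root of F. Alternatives used DESeq2 1.42.0, RLE factors, library totals, other filters, only the 2 groups compared, a replicate block, a smooth length offset, limma 3.58.1 on log2 of FPKM plus 1 or 0.1, and each library left out. Positions and promoters came from RefSeq (GRCh38.p14).

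All members were named. From each actin list, up to 4 called genes with the smallest adjusted p and average log2 CPM of at least 2 were eligible (the most abundant where none was called), with the 5 genes most like TAGLN, of which 1 is not reported here. ACTG1, MYL6, MYL12A, MYLK, ROCK1, ARHGEF12, TPM3 and PCSK7 were added outside this rule. The members and lists were chosen with earlier results of these data known. Intervals of a count of 0 cover counting error only, since reads carry no molecular identifiers here.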

Additional observations from a re-analysis of the deposited data

How the results depend on the processing

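Directions of called members held in all 20 alternatives. The members called in OGT_KO, TR11B_KO and between the knockouts numbered 2, 5 and 2. They numbered 2, 2 and 1 with RLE factors, 3, 5 and 4 with library totals, 9, 1 and 1 with only the 2 groups compared, 2, 4 and 1 with the length offset, 4, 5 and 4 with limma on log2(FPKM + 1), 3, 5 and 4 with a pseudocount of 0.1, and 3, 5 and 4 without a filter. Leaving out 1 library gave 1 to 7, 1 to 6 and 1 to 4. The libraries that decide a member's call stand beside that member above. The RLE factors ended the calls of TAGLN2, MYL9 and CNN2 in TR11B_KO and of CNN3 between the knockouts. For the actin lists, the 26, 32 and 43 calls were of 104 tested genes. With only the 2 groups compared they became 64 of 104 in OGT_KO and 21 of 103 in TR11B_KO. With the pseudocount of 0.1, 17 of only 81 tested list genes were called in OGT_KO. Leaving out 1 library gave 9 to 59, 16 to 45 and 22 to 55. Over all genes, the 2303, 3469 and 4174 calls became 5095 in OGT_KO and 2251 in TR11B_KO with only the 2 groups compared, and 1072 to 4536, 1813 to 4463 and 2401 to 5307 without 1 library. All-gene calls in OGT_KO and TR11B_KO were 2286 and 3495 with RLE factors, 2259 and 3210 with library totals, and 2292 and 2790 with the length offset. With limma they were 1772 and 2918 at a pseudocount of 1 and 1650 and 2897 at 0.1, of 7339 tested genes. Without a filter they were 1984 and 2535 of 17923. The causes were not tested.

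With the replicate block, 1 member was called in each comparison, MYL9 in OGT_KO and between the knockouts and ACTN1 in TR11B_KO. In TR11B_KO the adjusted p of TAGLN2, MYL9 and TPM2 were then 0.0506, 0.0521 and 0.0555, and that of CNN3 between the knockouts 0.0657. The list calls in OGT_KO were 17. The labels do not say that equal numbers pair the samples. Same-number correlations of deviations from the group means were −0.012, 0.069 and 0.062 for OGT_KO with NC. They were 0.017, −0.119 and −0.161 for TR11B_KO with NC, and −0.125, −0.199 and −0.001 between the knockouts. Not every sample correlated best with its own number, though OGT_KO replicates 2 and 3 did so with NC. Deviations from a mean of 3 libraries depend on each other, so these values cannot decide whether samples were paired.

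Signs turned only for members that did not pass. TPM1 in TR11B_KO was at −0.03 with library totals, −0.01 with the replicate block, −0.21, −0.22 and −0.21 with the 3 limma settings, and from −0.33 to 0.40 when 1 library was left out. CNN3 in TR11B_KO was at 0.13 with the length offset and from −0.20 to 0.20 when 1 was left out. Between the knockouts, TPM1 was at 0.00 with the pseudocount of 0.1, and from −0.72 to 0.02 when 1 was left out. TPM2 was at 0.13 with library totals and the 3 limma settings. TPM4 was at 0.15, 0.16 and 0.15 with limma and from −0.58 to 0.18 when 1 was left out, and ACTN4 from −0.06 to 0.35 when 1 was left out. TAGLN ranged from −2.31 to −1.82 in OGT_KO and from −2.03 to −1.72 in TR11B_KO.

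Some shares differed from NC by other amounts on CPM in place of FPKM. These changes were not set against the spread of the CPM shares between libraries. In OGT_KO and TR11B_KO, the TAGLN share then differed from NC by −1.77 and −1.48 points, the TPM2 share by 11.9 and 11.9, and the TPM3 share by −4.75 and −6.16. In OGT_KO the TPM1 share differed by −3.54, the TPM4 share by −3.59 and the CNN3 share by 0.478. CNN3 had 895 to 1663 summed counts a group, and depth limits TNFRSF11B, with at most 31.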
